A study of Mus musculus with 36 samples.

Results

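Mouse regulatory macrophages (Mreg) were compared with the same cultures left without interferon-γ (IFN-γ), so that the transcripts IFN-γ changed in this culture could be read across the genome. The comparison took 6 of the 36 single-colour arrays of the series, 3 labelled Mreg and 3 labelled Mreg_no IFN-γ, chosen by these labels alone. Both groups began as bone marrow monocytes, sorted as Ly6C+ Ly6G- CD11b+, and were kept for 7 days in RPMI 1640 with 10% fetal calf serum, 10% human AB serum and 5 ng/ml M-CSF. Mreg cultures were given 25 ng/ml IFN-γ on day 6 for the last 24 h, and Mreg_no IFN-γ cultures were not. The response was set beside that of macrophages grown in 20 ng/ml M-CSF with 10% fetal calf serum and no human serum, which were given the same IFN-γ dose for 24 h (MΦ_IFN-γ) or none (MΦ_M0), again with 3 arrays each. The labels name neither a strain nor an age, and they do not say whether each array had an animal of its own, so p-values measure the spread between arrays, which may be technical.

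The arrays carry series numbers 1 to 3, and the Mreg and Mreg_no IFN-γ arrays of one number lay on the same slide. Array position on the slide was the same for all 3 arrays of a group, so position and IFN-γ cannot be told apart. A level below is the log2 processed signal after subtraction of its array's 75th percentile, with the arrays in the order series 1, 2 and 3, and 53.1 to 56.1% of the probes of an array were well above background. Levels of different genes come from different probes and are not set against each other. A gene was called where limma's moderated test gave an adjusted p below 0.05 (Benjamini-Hochberg, over 17592 genes), and SE is the standard error of the log2 difference, Mreg minus Mreg_no IFN-γ. Where no array of a group had a gene well above background, its fold is given as a lower bound against the dimmest signals above background, and the adjusted p beside it tests the fitted difference, not the bound. For a gene above background on 1 or 2 arrays of a group, that number is given, and the fold rests in part on dimmer spots. Statements that arrays of both groups do not overlap are descriptions and add no support to a call. Of 17592 genes 6370 (36.2%) did not overlap, and of the 3586 called genes 3402 did not. The leading rises and falls were chosen among genes without overlap.

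The macrophage label was checked against its markers first. All 11 macrophage markers, among them C1qa, Csf1r and Cd68, were above background in both groups, and their summed linear level was 1201 to 1399 in Mreg and 1143 to 1261 in Mreg_no IFN-γ, with 4 of them called higher and 3 lower. Markers of T and NK cells (10 tested), B and plasma cells (4), mast cells, basophils and eosinophils (8), and erythroid cells and megakaryocytes (7) gave no call, and Cd3d, Ms4a1 and Cpa3 were below background in both groups. Of the T and NK markers, however, 4 were above background on all arrays of each group. The T and NK list summed to 29.1 to 58.3 in Mreg and 33.2 to 56.6 in Mreg_no IFN-γ. Of the B and plasma cell markers, 2 were above background on all arrays of each group. Of 11 markers of neutrophils and their precursors, S100a8 was higher, and the summed level of that list was 5.69 to 17.9 in Mreg and 1.52 to 2.43 in Mreg_no IFN-γ, while Elane, Ltf, Camp, Ngp, Cxcr2 and Retnlg were below background in both. The 8 dendritic cell markers summed to 1.65 to 3.50 in Mreg and 0.612 to 0.852 in Mreg_no IFN-γ, with Clec9a as the only call and Cd209a and Ccr7 below background in both. The 6 markers of Ly6C-high monocytes summed to 5.75 to 17.4 in Mreg and 15.2 to 19.9 in Mreg_no IFN-γ, while 2 of the 6 were called higher and none lower. The 6 stromal and endothelial markers, 1 of them lower, summed to 0.159 to 0.184 in Mreg and 0.169 to 0.227 in Mreg_no IFN-γ. The part of these marker levels in the results below was not tested. Series 2 stood apart in both groups: Chil3, a chitinase-like protein of alternatively activated macrophages, was at -0.55, 3.95 and -0.61 on the Mreg arrays, against -0.46, 3.88 and -1.24 on the Mreg_no IFN-γ arrays, and C1qa, a complement component, was at 3.06, 0.90 and 3.16 on the Mreg arrays, against 1.83, -0.91 and 2.14 on the Mreg_no IFN-γ arrays. The leading counts below are therefore also given without both series 2 arrays, an alternative chosen after seeing the data. In such whole-culture RNA, fewer cells of a type and less RNA per cell cannot be told apart. C1qa was called with the series number as a block in a fit of the 6 arrays (log2 1.35, adjusted p = 0.024).

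IFN-γ binds a receptor made of Ifngr1 and Ifngr2, whose kinases JAK1 and JAK2 activate transcription factors that bind GAS elements in target promoters. Factors made in the first wave, above all IRF1, then act through a second kind of element, the ISRE, while CIITA turns on the class II genes of antigen presentation and SOCS proteins shut the receptor off. Macrophages answer with GTPases that attack intracellular pathogens, with peptide loading on MHC class I and II, and with chemokines, and Mreg are studied as a cell type that restrains T cells after transplantation.

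Promoters of some genes called higher are shown first, picked by hand for a match to the elements through which IFN-γ is known to act.
Sequences are from RefSeq promoters on GRCm38.p6, read 5′ to 3′ along the gene, and capitals mark a GAS match (TTCNNNGAA) or a match of the ISRE core (GAAA, any 2 bases and GAAA, or TTTC, any 2 bases and TTTC on the other strand).
Irf1: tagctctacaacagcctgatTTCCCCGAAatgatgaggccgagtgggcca
Socs3: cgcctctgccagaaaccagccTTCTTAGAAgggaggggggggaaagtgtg
Socs1: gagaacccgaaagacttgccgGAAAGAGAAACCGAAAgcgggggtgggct
Gbp2: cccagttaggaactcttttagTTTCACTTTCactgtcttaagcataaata
Gbp7: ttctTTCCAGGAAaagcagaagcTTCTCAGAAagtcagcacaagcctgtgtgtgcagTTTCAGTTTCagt
Tgtp1: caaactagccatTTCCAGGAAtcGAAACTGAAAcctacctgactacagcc
Igtp: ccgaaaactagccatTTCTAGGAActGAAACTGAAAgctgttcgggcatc
Irgm2: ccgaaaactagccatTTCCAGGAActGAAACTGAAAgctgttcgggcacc
Ifit1: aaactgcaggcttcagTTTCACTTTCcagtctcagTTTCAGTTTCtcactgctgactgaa

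The windows lie at chr11:53769904-53769953 on the plus strand (Irf1), chr11:117969492-117969541 on the minus strand (Socs3), chr16:10785591-10785640 on the minus strand (Socs1), chr3:142620583-142620632 on the plus strand (Gbp2), chr3:142530226-142530295 on the plus strand (Gbp7), chr11:48992297-48992346 on the minus strand (Tgtp1), chr11:58199496-58199545 on the plus strand (Igtp), chr11:58214887-58214936 on the plus strand (Irgm2) and chr19:34640769-34640828 on the plus strand (Ifit1), all within 250 bases before the annotated start. Irf1 and Socs3 showed a GAS match and no ISRE core match here, Socs1 showed 2 overlapping ISRE cores, Gbp2 a lone ISRE core, Ifit1 a pair of them, and Gbp7 held 2 GAS matches and an ISRE core. In Tgtp1, Igtp and Irgm2 a GAS match ended exactly 2 bases before an ISRE core, an arrangement found in 5 of 27025 promoters, those of Tgtp1, Tgtp2, Igtp, Irgm2 and the predicted gene Gm12185, while 105 promoters held both matches. Of the genes called higher in Mreg that had a promoter, 6.48% of 1188 held an ISRE core and 6.82% a GAS match, against 1.50% and 5.86% of 1399 called lower and 2.78% and 6.01% of 11545 tested. All 5 guanylate-binding protein genes with a promoter held an ISRE core, as did 5 of 6 immunity-related GTPase genes (83.3%) and 11 of 30 antiviral genes (36.7%) called higher, against 3.04% of all 27025 promoters. GAS matches stood in 3 of the 6 interferon regulatory factor promoters (50%) and in 4 of 6 immunity-related GTPase promoters (66.7%), against 7.18% of all promoters. Some other lists held no match. The ISRE core stood in 0 of 5 immunoproteasome and 0 of 6 class II promoters of genes called higher. A GAS match stood in 0 of 5 receptor and JAK-STAT promoters and 0 of 6 chemokine promoters of genes called higher. GAS and ISRE core matches overlapped in 17 promoters of the table. A match is a description of letters, not a bound site.

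IFN-γ moved many transcripts of the culture, and the rises were the larger ones. Of 17592 genes, 3586 (20.4%) were called, 1673 higher in Mreg (9.51%) and 1913 lower (10.9%), and 845 rose (4.8%) and 591 fell (3.36%) at least 2-fold. Past 10-fold there were 91 rises and 11 falls. The median log2 difference of all genes was -0.06. Of the calls, 3569 (99.5%) had the same sign on all 3 slides, a description only, since the calls were made on these same arrays. Without the Mreg array of series 1, 2383 genes were called, with the falls down to 1152, and without both series 2 arrays 2723 were called, 1365 higher and 1358 lower. Among 43 gene lists, the highest shares of rises were those of guanylate-binding proteins (10 of 10), the immunoproteasome (5 of 5), mitosis (40 of 43) and immunity-related GTPases (9 of 10), and the highest share of falls was that of NRF2 and glutathione genes (24 of 33).

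**Figure D1:**
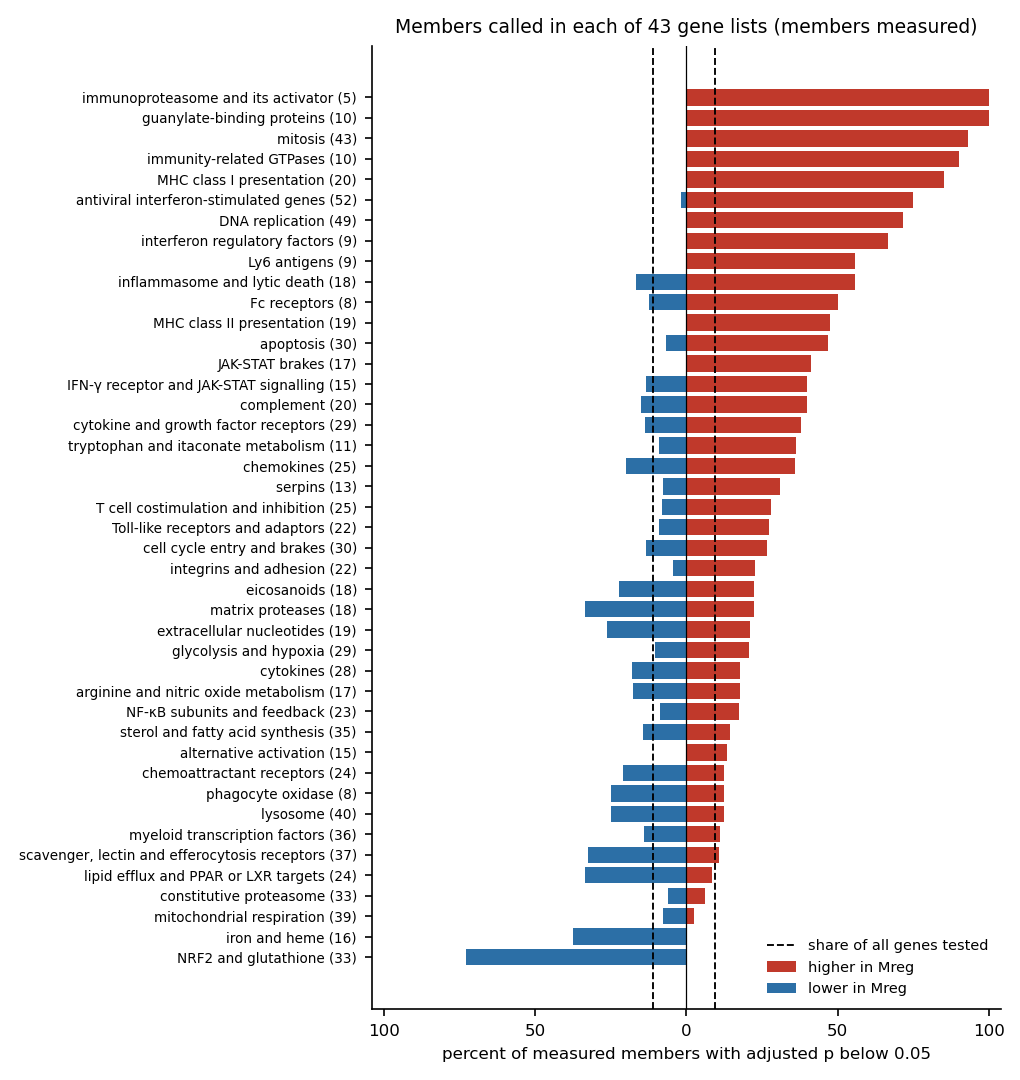
Share of the measured members of each of 43 gene lists (horizontal axis, percent) that was called higher (red) or lower (blue) in Mreg than in Mreg_no IFN-γ. Dashed lines mark the shares over all genes, 9.51% higher and 10.9% lower, and the guanylate-binding proteins and the immunoproteasome stand at the far end with all members higher.

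By fitted difference, the 10 leading rises were those of Iigp1, Gbp4, Ciita, Serpina3f, Serpina3g, Gbp2, Tgtp1, Gbp8, H2-Aa and Ly6a. This order is not one of measured size, since Iigp1, Gbp4, Ciita, Gbp8 and H2-Aa were below background without IFN-γ, and at their bounds Gbp8 and H2-Aa (at least 167-fold and at least 164-fold) lay under Gbp11 (402-fold) and Gbp5 (378-fold), which are not among the 10. Iigp1, an immunity-related GTPase that disrupts the vacuoles of intracellular parasites, was at 7.64, 6.47 and 6.66 on the Mreg arrays, against -7.48, -7.70 and -6.79 on the Mreg_no IFN-γ arrays. It was not above background without IFN-γ, so the rise was at least 6509-fold (adjusted p = 6.27e-19), and the Mreg arrays stood far above the others. Serpina3g, an inhibitor of cathepsins, was at 6.07, 3.19 and 4.29 on the Mreg arrays, against -6.61, -5.07 and -5.69 on the Mreg_no IFN-γ arrays, a rise of 1269-fold (log2 10.31, SE 0.53, adjusted p = 4.23e-14). Its neighbour Serpina3f was at 4.67, 2.79 and 3.36 on the Mreg arrays, against -7.88, -4.83 and -7.97 on the Mreg_no IFN-γ arrays, and the rise was 1448-fold (log2 10.50, SE 0.65, adjusted p = 1.91e-12). Both serpins were highest on the series 1 Mreg array, lowest among the Mreg arrays on series 2, and did not overlap between groups. The serpins of this cluster are close paralogs, and cross-hybridization between their probes cannot be told apart from expression. Serpina3f was well above background on 1 of 3 Mreg_no IFN-γ arrays and Gbp11 and Serpina3g on 2 of 3 Mreg_no IFN-γ arrays.

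At the receptor, the ligand-binding chain fell, while most members called further down the pathway rose. Ifngr1, the ligand-binding chain, was at 5.73, 5.68 and 5.69 on the Mreg arrays, against 6.30, 6.12 and 6.15 on the Mreg_no IFN-γ arrays, a fall of 1.41-fold (log2 -0.49, SE 0.12, adjusted p = 0.0047). Ifngr2, the signalling chain, was at 2.86, 2.89 and 2.77 on the Mreg arrays, against 3.25, 3.12 and 3.07 on the Mreg_no IFN-γ arrays and did not pass (adjusted p = 0.11), and Jak1 was not called either (log2 0.13, adjusted p = 0.431). The groups of Ifngr1 did not overlap, the Mreg arrays being the lower. Jak2 was at 2.51, 2.79 and 2.66 on the Mreg arrays, against 1.25, 1.87 and 1.42 on the Mreg_no IFN-γ arrays, a rise of 2.2-fold (log2 1.14, SE 0.13, adjusted p = 3.46e-07). Stat2, a factor of type I interferon signalling, rose 4.4-fold (log2 2.14, SE 0.28, adjusted p = 2.28e-06), and Stat3, the factor downstream of IL-6 and IL-10, rose 2.45-fold (log2 1.29, SE 0.17, adjusted p = 2.06e-06). The Jak2 groups did not overlap either, the Mreg arrays being the higher. In all, 6 of 15 members of the list rose and 2 fell, the second being Ifnar1, a chain of the type I interferon receptor (1.61-fold lower, adjusted p = 0.00104). Ifngr1 lost its call with normexp background correction. Jak1 was called with the mean of all probes (log2 0.28, adjusted p = 0.0306).

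Among 17 feedback inhibitors of the pathway 7 rose and none fell, with the largest rises in a pair of SOCS genes. Socs3, which blocks receptors that use gp130 and is induced by STAT3, was at 5.45, 4.50 and 4.52 on the Mreg arrays, against -1.98, -0.78 and -1.49 on the Mreg_no IFN-γ arrays, a rise of 75.5-fold (log2 6.24, SE 0.39, adjusted p = 1.89e-12). Socs1, the main brake of JAK2 at the IFN-γ receptor, was at 5.96, 4.05 and 4.50 on the Mreg arrays, against -0.42, -0.17 and -0.64 on the Mreg_no IFN-γ arrays, a rise of 37.9-fold (log2 5.24, SE 0.37, adjusted p = 2.91e-11). Both were highest on the series 1 Mreg array, and no Mreg array came near the others. Cish, a SOCS family member induced by STAT5, rose 3.34-fold (log2 1.74, SE 0.36, adjusted p = 7.00e-04), and Usp18, which restrains type I interferon signalling, rose 4.78-fold (log2 2.26, SE 0.44, adjusted p = 4.16e-04). Among phosphatases, Ptpn2, which acts on JAK kinases, rose 2.69-fold (log2 1.43, SE 0.15, adjusted p = 1.10e-07) and Ptpn6 (SHP-1) rose 1.85-fold (log2 0.89, SE 0.11, adjusted p = 1.34e-06), while Ptpn1 and Ptpn11 did not pass (adjusted p = 0.318 and 0.56). Of the 17 brakes, 6 rose without both series 2 arrays. Cish lost its call with normexp background correction.

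Of 9 interferon regulatory factors, 6 rose and none fell, 6 also without both series 2 arrays. Irf1, the factor whose promoter GAS is shown above, was at 8.15, 8.06 and 8.02 on the Mreg arrays, against 3.10, 3.02 and 3.16 on the Mreg_no IFN-γ arrays, a rise of 31.7-fold (log2 4.98, SE 0.13, adjusted p = 3.15e-20). Irf8, a partner of IRF1 that also sets monocyte identity, was at 7.09, 6.80 and 6.80 on the Mreg arrays, against 5.12, 4.64 and 4.84 on the Mreg_no IFN-γ arrays, a rise of 4.09-fold (log2 2.03, SE 0.20, adjusted p = 2.05e-08). Irf7, the amplifier of type I interferon, was at 2.46, 2.61 and 2.49 on the Mreg arrays, against 0.11, 1.51 and 0.77 on the Mreg_no IFN-γ arrays, a rise of 3.31-fold (log2 1.73, SE 0.45, adjusted p = 0.00629). The 3 Mreg levels of Irf1 lay within a narrow range, and none of the 3 genes overlapped between groups. Irf9, the DNA-binding part of the type I complex, rose 1.61-fold (log2 0.69, SE 0.13, adjusted p = 4.09e-04), Irf5 rose 1.58-fold (log2 0.66, SE 0.14, adjusted p = 8.16e-04) and Irf2, a competitor of IRF1, rose 1.66-fold (log2 0.73, SE 0.17, adjusted p = 0.00246), while Irf3, which is activated by phosphorylation, did not pass (adjusted p = 0.37). Batf2, which pairs with IRF1 on macrophage promoters, was at 4.99, 3.95 and 4.25 on the Mreg arrays, against -0.26, -0.11 and -0.25 on the Mreg_no IFN-γ arrays, a rise of 24.2-fold (log2 4.60, SE 0.31, adjusted p = 1.00e-11). Irf7 lost its call without Mreg_no IFN-γ series 1 (adjusted p = 0.0541). Irf2 lost its call with only the 6 arrays in the fit.

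**Figure D2:**
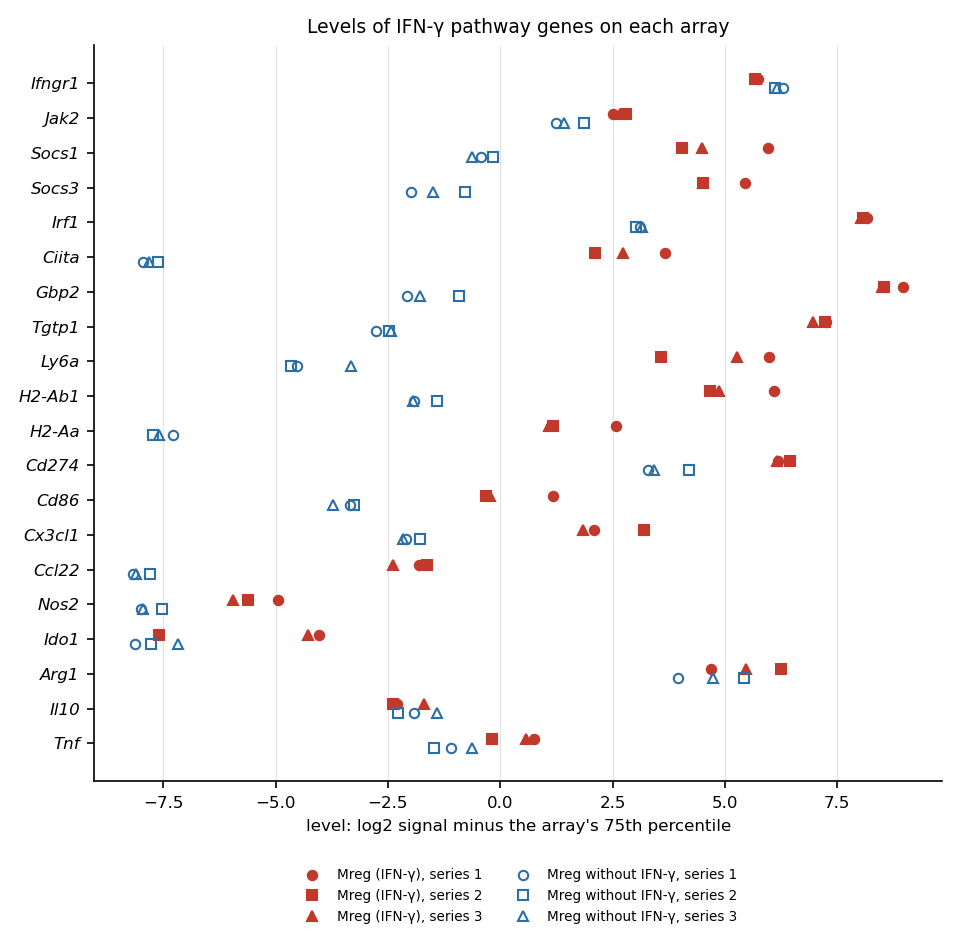
Level of 20 genes of the IFN-γ pathway on each array (horizontal axis, log2 signal less the 75th percentile of each array). Filled red symbols are Mreg arrays and open blue ones Mreg_no IFN-γ arrays, with circles, squares and triangles for series 1, 2 and 3. Irf1 sits between 8.02 and 8.15 in Mreg and between 3.02 and 3.16 in Mreg_no IFN-γ, while the symbols of Arg1, Il10 and Ido1 overlap.

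Nearly all measured GTPases that macrophages aim at intracellular pathogens rose. All 10 guanylate-binding proteins rose, with a median log2 difference of 8.61 (7.77 with genes below background at their bounds), against -0.06 for all genes. Gbp2 was at 8.97, 8.54 and 8.50 on the Mreg arrays, against -2.07, -0.93 and -1.79 on the Mreg_no IFN-γ arrays, a rise of 1232-fold (log2 10.27, SE 0.21, adjusted p = 8.25e-23). Gbp5, which helps the NLRP3 inflammasome assemble, was at 4.63, 3.93 and 3.59 on the Mreg arrays, against -4.74, -4.27 and -4.53 on the Mreg_no IFN-γ arrays, a rise of 378-fold (log2 8.56, SE 0.27, adjusted p = 6.57e-19). Gbp4 was at 3.97, 1.63 and 2.81 on the Mreg arrays, against -7.93, -7.58 and -7.98 on the Mreg_no IFN-γ arrays, a rise of at least 374-fold (adjusted p = 2.31e-15). For these 3 genes the levels without IFN-γ were far below every Mreg level, and Gbp4 was below background there. Gbp11 rose 402-fold, Gbp7 229-fold, Gbp6 at least 208-fold, Gbp3 199-fold and Gbp8 at least 167-fold. Guanylate-binding protein genes are near-identical in stretches, so a probe may read more than its own gene. Gbp7 was well above background on 1 of 3 Mreg_no IFN-γ arrays.

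Of 10 immunity-related GTPases and their relatives, 9 rose and none fell. Tgtp1, which coats parasite vacuoles, was at 7.25, 7.22 and 6.97 on the Mreg arrays, against -2.76, -2.47 and -2.42 on the Mreg_no IFN-γ arrays, a rise of 830.5-fold (log2 9.70, SE 0.37, adjusted p = 6.81e-17), and its near-identical copy Tgtp2 cannot be told apart from it. Igtp (Irgm3), which guards self membranes, was at 7.64, 6.93 and 7.15 on the Mreg arrays, against 2.16, 2.26 and 2.26 on the Mreg_no IFN-γ arrays, a rise of 32.4-fold (log2 5.02, SE 0.28, adjusted p = 3.24e-13). Irgm1, which regulates the others and autophagy, was at 6.41, 6.29 and 6.18 on the Mreg arrays, against 1.41, 1.62 and 1.46 on the Mreg_no IFN-γ arrays, a rise of 27.8-fold (log2 4.80, SE 0.20, adjusted p = 9.23e-16). The Mreg arrays of these genes were all above the Mreg_no IFN-γ arrays, which for Igtp and Irgm1 were themselves above background. Gm12250 rose 43.7-fold, Ifi47 35.7-fold, Irgm2 17.6-fold and the very large GTPase Gvin1 9.69-fold. The counts of both GTPase lists were the same, 10 and 9, without both series 2 arrays. Gm12250 was well above background on 1 of 3 Mreg_no IFN-γ arrays.

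Genes shared with the type I interferon response rose widely: 39 of 52 antiviral genes were called higher and 1 lower, with a median log2 difference of 1.52. Zbp1, a sensor of Z-form nucleic acid that triggers necroptosis, was at 4.15, 2.96 and 3.54 on the Mreg arrays, against -1.99, -2.08 and -1.55 on the Mreg_no IFN-γ arrays, a rise of 42.9-fold (log2 5.42, SE 0.31, adjusted p = 6.00e-13). Ifit2, which restrains viral translation, was at 2.52, 1.80 and 2.22 on the Mreg arrays, against -3.11, -2.27 and -2.51 on the Mreg_no IFN-γ arrays, a rise of 28-fold (log2 4.81, SE 0.41, adjusted p = 1.05e-09). Ifit1, which binds viral RNA lacking a methylated cap, was at 0.18, -0.54 and 0.04 on the Mreg arrays, against -4.71, -3.95 and -3.79 on the Mreg_no IFN-γ arrays, a rise of 16.4-fold (log2 4.04, SE 0.43, adjusted p = 7.41e-08). None of the 3 genes overlapped between groups, and the spread among Mreg_no IFN-γ arrays was wider than among Mreg arrays for Ifit1. Ifit3 rose 20.6-fold, Ifi44 at least 23.8-fold, Slfn1 14.8-fold, Ifi205 8.87-fold and Rtp4 8.14-fold. The bright membrane genes Ifitm2 and Ifitm3, which block viral entry, were not called (adjusted p = 0.404 and 0.511). The lone fall was Isg20, an RNA exonuclease named here after its value was seen, at -2.18, -2.45 and -2.04 on the Mreg arrays, against -0.36, -0.63 and -0.63 on the Mreg_no IFN-γ arrays (3.21-fold lower, log2 -1.68, adjusted p = 9.19e-06). Between 34 (without the Mreg array of series 1) and 38 members were higher with an array left out, and 38 without both series 2 arrays. Ifi44 and Slfn1 lost their calls with normexp background correction. Slfn1 was well above background on 1 of 3 Mreg_no IFN-γ arrays.

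Genes that cut peptides for MHC class I rose. The 3 inducible proteasome subunits and both subunits of the PA28 activator rose, 5 of 5, with a median log2 difference of 1.90. Psmb9 was at 5.81, 5.18 and 5.31 on the Mreg arrays, against 3.15, 2.89 and 2.98 on the Mreg_no IFN-γ arrays, a rise of 5.37-fold (log2 2.43, SE 0.16, adjusted p = 8.52e-12). Psmb10 was at 6.87, 6.60 and 6.57 on the Mreg arrays, against 4.64, 4.43 and 4.45 on the Mreg_no IFN-γ arrays, a rise of 4.49-fold (log2 2.17, SE 0.11, adjusted p = 4.23e-14). Psmb8 rose 3.73-fold (log2 1.90, SE 0.12, adjusted p = 1.78e-12), Psme1 rose 3.27-fold and Psme2 2.33-fold. None of these overlapped between groups. By contrast, the 33 other proteasome genes had a median log2 difference of 0.01 with 2 rises and 2 falls, or 5 rises and 3 falls with the series number as a block, and Psma4, the largest rise among them, was 1.52-fold higher.

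Of 20 class I genes, 17 rose and none fell, 17 also without both series 2 arrays. Tapbpl, a peptide editor related to tapasin, was at 3.86, 3.60 and 3.49 on the Mreg arrays, against 0.23, 0.27 and 0.32 on the Mreg_no IFN-γ arrays, a rise of 10.4-fold (log2 3.38, SE 0.12, adjusted p = 2.92e-17). Tap1, which pumps peptides into the endoplasmic reticulum, was at 4.34, 3.94 and 3.85 on the Mreg arrays, against 0.80, 0.83 and 0.68 on the Mreg_no IFN-γ arrays, a rise of 9.67-fold (log2 3.27, SE 0.16, adjusted p = 2.45e-14). B2m, the invariant light chain, was at 7.78, 7.57 and 7.55 on the Mreg arrays, against 6.48, 6.38 and 6.17 on the Mreg_no IFN-γ arrays, a rise of 2.45-fold (log2 1.29, SE 0.16, adjusted p = 9.29e-07). All Mreg levels of these 3 genes exceeded all Mreg_no IFN-γ levels. Tap2 rose 3.32-fold, tapasin (Tapbp) 3.57-fold, the trimming peptidase Erap1 3.02-fold, H2-T22 2.32-fold and H2-T24 7.18-fold. The general chaperones Canx and Pdia3 were not called (adjusted p = 0.153 and 0.192). H2 heavy chain genes are polymorphic and alike, so probes of this family may cross-hybridize. Canx was called with quantile normalization (log2 -0.36, adjusted p = 0.0218) and from the authors' series table (log2 -0.32, adjusted p = 0.0418). Pdia3 was called with the slide as a block (log2 0.37, adjusted p = 0.0178) and with the series number as a block in a fit of the 6 arrays (log2 0.37, adjusted p = 0.0298).

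The class II chains H2-Aa, H2-Ab1 and H2-Eb1 rose, as did their coactivator. Ciita, the coactivator that class II promoters need, was at 3.66, 2.10 and 2.73 on the Mreg arrays, against -7.95, -7.62 and -7.81 on the Mreg_no IFN-γ arrays, a rise of at least 381-fold (adjusted p = 2.08e-12). H2-Aa, the α chain of I-A, was at 2.58, 1.17 and 1.07 on the Mreg arrays, against -7.29, -7.73 and -7.58 on the Mreg_no IFN-γ arrays, a rise of at least 164-fold (adjusted p = 5.42e-13). H2-Ab1, its β chain, was at 6.09, 4.67 and 4.87 on the Mreg arrays, against -1.91, -1.41 and -1.95 on the Mreg_no IFN-γ arrays, a rise of 125-fold (log2 6.96, SE 0.51, adjusted p = 6.24e-11). In each gene the series 1 Mreg array was the highest, and Ciita and H2-Aa were below background on every array without IFN-γ. Cd74, the invariant chain that chaperones class II, was at 5.04, 2.55 and 3.29 on the Mreg arrays, against -3.66, -4.07 and -4.16 on the Mreg_no IFN-γ arrays, a rise of 192-fold (log2 7.59, SE 0.59, adjusted p = 2.06e-10). H2-Eb1 rose 33.2-fold, and the peptide exchange factors H2-DMa, H2-DMb1 and H2-DMb2 rose 8.29-fold, 3.66-fold and 3.88-fold. The lysosomal enzymes that prepare peptides for class II, Ctss, Ctsl and Lgmn, were bright and not called, with adjusted p of 0.787, 0.531 and 0.72. In all, 9 of 19 members rose and none fell, 9 also without both series 2 arrays.

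Class II promoters share an X-Y module, and the Y box (ATTGG) that NF-Y binds is in capitals below on either strand.
H2-Aa: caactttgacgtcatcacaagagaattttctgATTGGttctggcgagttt
H2-Eb1: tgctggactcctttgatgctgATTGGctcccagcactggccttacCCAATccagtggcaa

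These windows are chr17:34287854-34287903 on the minus strand (H2-Aa) and chr17:34305787-34305846 on the plus strand (H2-Eb1) on GRCm38.p6. The match of H2-Aa lay close to the start, and H2-Eb1 held 2 matches on opposite strands. A Y box stood in 4 of 6 promoters of class II genes called higher (66.7%) and in 10 of 12 of class I genes (83.3%), against 34.5% of all promoters, so the motif is common. It overlapped a GAS match in 11 promoters and an ISRE core in 4.

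**Figure D3:**
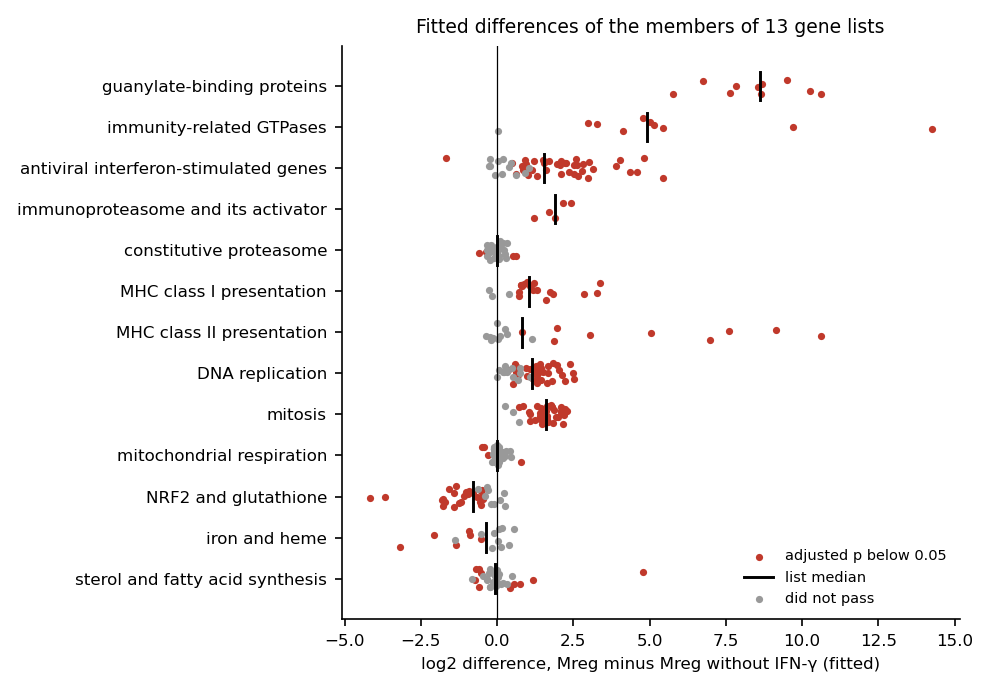
Fitted log2 difference, Mreg minus Mreg_no IFN-γ (horizontal axis), of every measured member of 13 gene lists, with the list median as a bar and called genes in red, others in grey. The guanylate-binding proteins centre on 8.61, the mitosis list on 1.62 and the NRF2 and glutathione list on -0.79.

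Among ligands that speak to T cells, activating and restraining ones were called higher. Cd274 (PD-L1), which restrains T cells through PD-1, was at 6.19, 6.45 and 6.17 on the Mreg arrays, against 3.28, 4.21 and 3.43 on the Mreg_no IFN-γ arrays, a rise of 6.18-fold (log2 2.63, SE 0.18, adjusted p = 1.47e-11). Cd86, the ligand of CD28 and CTLA-4, was at 1.17, -0.32 and -0.22 on the Mreg arrays, against -3.35, -3.26 and -3.73 on the Mreg_no IFN-γ arrays, a rise of 12.6-fold (log2 3.66, SE 0.43, adjusted p = 4.78e-07). Tnfrsf14 (HVEM), which binds both activating and inhibitory partners, rose 3.97-fold (log2 1.99, SE 0.17, adjusted p = 2.08e-09). The Mreg arrays were all above the others in these 3 genes, and Cd86 was highest on series 1. Vsir (VISTA), an inhibitory ligand, fell 1.83-fold (log2 -0.88, SE 0.18, adjusted p = 6.12e-04), and Cd244a (2B4), a receptor for CD48, fell 3.67-fold (log2 -1.88, SE 0.37, adjusted p = 5.35e-04). Pdcd1lg2 (PD-L2), the other PD-1 ligand, was at -3.08, -3.23 and -3.96 on the Mreg arrays, against -6.80, -6.67 and -4.24 on the Mreg_no IFN-γ arrays and passed with a wide spread (5.57-fold higher, adjusted p = 0.0121). Of 25 members 7 rose and 2 fell, and 4 rises were left without the Mreg array of series 1 or the Mreg_no IFN-γ array of series 2. Pdcd1lg2 lost its call without Mreg series 1, Mreg_no IFN-γ series 1, Mreg_no IFN-γ series 2 or series 2 of both groups (adjusted p 0.056 to 0.137). Pdcd1lg2 lost its call with normexp background correction, with only the 6 arrays in the fit and with the series number as a block in a fit of the 6 arrays. Pdcd1lg2 was well above background on 1 of 3 Mreg_no IFN-γ arrays.

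Chemokines split in direction, with 9 of 25 higher and 5 lower, where 9.51% of all genes rose and 10.9% fell. Cxcl10, a ligand of CXCR3 that draws activated T cells, was at 1.49, -3.22 and -1.20 on the Mreg arrays, against -7.23, -7.51 and -7.91 on the Mreg_no IFN-γ arrays, a rise of at least 27.2-fold (adjusted p = 4.65e-07). Cxcl9, another CXCR3 ligand, was at 0.15, -3.02 and -2.96 on the Mreg arrays, against -8.08, -7.74 and -8.08 on the Mreg_no IFN-γ arrays, a rise of at least 14-fold (adjusted p = 3.31e-07). Both were highest in the series 1 Mreg array by a wide margin and were below background in all Mreg_no IFN-γ arrays. Ccl22, which draws regulatory and helper T cells through CCR4, was at -1.81, -1.62 and -2.39 on the Mreg arrays, against -8.17, -7.80 and -8.11 on the Mreg_no IFN-γ arrays, a rise of at least 14-fold (adjusted p = 2.27e-07). Cx3cl1 (fractalkine) was at 2.10, 3.20 and 1.84 on the Mreg arrays, against -2.10, -1.79 and -2.17 on the Mreg_no IFN-γ arrays, a rise of 21.1-fold (log2 4.40, SE 0.50, adjusted p = 2.31e-07), and Ccl12, a CCR2 ligand, rose 38.8-fold (log2 5.28, SE 0.44, adjusted p = 8.09e-10). Ccl22 and Cx3cl1 did not overlap between groups, and in Cx3cl1 series 2 was the highest of the Mreg arrays. On the lower side, Cxcl1, a neutrophil attractant, was at -7.58, -7.03 and -5.97 on the Mreg arrays, against -4.24, -3.45 and -3.36 on the Mreg_no IFN-γ arrays and fell to below background in Mreg (at least 3.78-fold lower, adjusted p = 0.00144). Ppbp (CXCL7), a platelet chemokine, was at -5.02, -4.13 and -4.20 on the Mreg arrays, against -0.58, -1.05 and -0.94 on the Mreg_no IFN-γ arrays and fell 12.1-fold (log2 -3.60, SE 1.08, adjusted p = 0.017), and the megakaryocyte gene Pf4 beside it did not pass (log2 -1.05, adjusted p = 0.0742). The summed level of erythroid and megakaryocyte markers, which is mostly Pf4, was 54.1 to 71.4 in Mreg and 98.3 to 140 in Mreg_no IFN-γ, and its part in the Ppbp fall was not tested. Ppbp lost its call without Mreg series 1, Mreg_no IFN-γ series 1 or series 2 of both groups (adjusted p 0.0549 to 0.0748). Cxcl9 lost its call with normexp background correction. Ccl12 was well above background on 1 of 3 Mreg_no IFN-γ arrays. Pf4 was called with only the 6 arrays in the fit (log2 -1.05, adjusted p = 0.0232) and with the series number as a block in a fit of the 6 arrays (log2 -1.05, adjusted p = 0.0219).

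Receptors for attractants gave 3 rises and 5 falls among 24 members, where 9.51% of all genes rose and 10.9% fell. The rises numbered 2 with normexp background correction and without Mreg series 1 or 3. S1pr1, which guides cells along sphingosine-1-phosphate, was at -4.49, -4.44 and -3.24 on the Mreg arrays, against 0.34, -1.42 and 0.03 on the Mreg_no IFN-γ arrays, a fall of 13-fold (log2 -3.71, SE 0.50, adjusted p = 3.36e-06). Cxcr4, the CXCL12 receptor that retains cells in marrow, was at -1.17, 0.64 and 0.01 on the Mreg arrays, against 2.05, 2.09 and 1.67 on the Mreg_no IFN-γ arrays, a fall of 4.31-fold (log2 -2.11, SE 0.33, adjusted p = 2.73e-05). Ltb4r1, the leukotriene B4 receptor, was at 2.21, 2.05 and 1.91 on the Mreg arrays, against -1.73, 0.23 and -0.71 on the Mreg_no IFN-γ arrays, a rise of 6.95-fold (log2 2.80, SE 0.38, adjusted p = 4.52e-06). None of the 3 overlapped between groups. C5ar1, the C5a receptor, fell 2.46-fold (log2 -1.30, SE 0.31, adjusted p = 0.00344), and Cxcr3 fell 2.77-fold and Ccr3 3.64-fold.

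Secreted cytokines gave 5 rises and 5 falls among 28 members, where 9.51% of all genes rose and 10.9% fell. Tnf, the inflammatory cytokine, was at 0.76, -0.18 and 0.56 on the Mreg arrays, against -1.10, -1.47 and -0.62 on the Mreg_no IFN-γ arrays, a rise of 2.72-fold (log2 1.44, SE 0.34, adjusted p = 0.00259). Il15, which sustains NK and memory T cells, was at 0.59, 0.09 and 0.15 on the Mreg arrays, against -1.30, -1.30 and -1.32 on the Mreg_no IFN-γ arrays, a rise of 3-fold (log2 1.59, SE 0.21, adjusted p = 3.67e-06), and its presenting receptor Il15ra rose 6.41-fold (log2 2.68, SE 0.20, adjusted p = 1.07e-10). Il10, an anti-inflammatory cytokine, was at -2.30, -2.38 and -1.70 on the Mreg arrays, against -1.92, -2.26 and -1.41 on the Mreg_no IFN-γ arrays and was not called (log2 -0.26, SE 0.55, adjusted p = 0.825). The Tnf and Il15 groups did not overlap, and the Il10 groups did. Tnfsf10 (TRAIL), a death ligand, rose at least 14.7-fold (adjusted p = 1.45e-10) and Tgfb3 rose 7.2-fold (log2 2.85, SE 0.49, adjusted p = 1.01e-04), while Osm fell 2.21-fold and the growth factor gene Pdgfa 2.22-fold. Among 29 receptors 11 rose and 4 fell. Il12rb1, a chain shared by the IL-12 and IL-23 receptors, was at 5.80, 4.38 and 5.27 on the Mreg arrays, against -1.19, -2.48 and -1.49 on the Mreg_no IFN-γ arrays, a rise of 117-fold (log2 6.87, SE 0.41, adjusted p = 8.73e-13). Il18bp, a decoy that binds IL-18, was at 4.70, 4.12 and 4.42 on the Mreg arrays, against 0.82, 0.34 and 0.53 on the Mreg_no IFN-γ arrays, a rise of 14.4-fold (log2 3.85, SE 0.25, adjusted p = 7.31e-12). The Il12rb1 and Il18bp levels without IFN-γ were all lower than any Mreg level. The IL-4 and IL-13 receptor chains Il4ra and Il13ra1 rose 2.92-fold and 3.95-fold.

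Among 18 sensors and executors of lytic death 10 rose and 3 fell. Nod1, a sensor of bacterial cell wall, was at 4.73, 4.07 and 4.44 on the Mreg arrays, against 2.11, 2.30 and 2.25 on the Mreg_no IFN-γ arrays, a rise of 4.57-fold (log2 2.19, SE 0.17, adjusted p = 1.52e-10). Casp4 (caspase-11), which detects cytosolic LPS, was at 4.07, 4.08 and 3.84 on the Mreg arrays, against 1.83, 2.37 and 2.00 on the Mreg_no IFN-γ arrays, a rise of 3.82-fold (log2 1.93, SE 0.17, adjusted p = 2.06e-09). Nlrp3 was at -1.63, -2.23 and -1.99 on the Mreg arrays, against -3.89, -3.87 and -3.59 on the Mreg_no IFN-γ arrays, a rise of 3.56-fold (log2 1.83, SE 0.20, adjusted p = 1.37e-07). Every Mreg level of these 3 genes was above every Mreg_no IFN-γ level. Mlkl, which perforates the membrane in necroptosis, rose 3.15-fold and Casp1 2.61-fold, and Naip5, a flagellin sensor, fell 1.87-fold. Among 30 apoptosis genes 14 rose and 2 fell, with 10 rises and no fall without both series 2 arrays. Casp12 rose at least 8.98-fold (adjusted p = 1.51e-12), Casp2 2.05-fold and the death receptor Fas 1.99-fold. Casp12 lost its call with normexp background correction.

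Arginine and tryptophan metabolism are the routes by which macrophages starve or poison both microbes and T cells. Nos2, inducible nitric oxide synthase, was at -4.95, -5.61 and -5.94 on the Mreg arrays, against -8.00, -7.52 and -7.94 on the Mreg_no IFN-γ arrays, and it was above background on 1 Mreg array and on no Mreg_no IFN-γ array. Its rise was at least 1.18-fold (adjusted p = 5.80e-04), and with normexp background correction the difference was -0.27. Arg1, which competes for the same substrate, was at 4.70, 6.24 and 5.47 on the Mreg arrays, against 3.95, 5.42 and 4.74 on the Mreg_no IFN-γ arrays and was not called (log2 0.77, SE 0.40, adjusted p = 0.198). The Arg1 groups overlapped, with series 2 highest in each. Ass1, which regenerates arginine from citrulline, was at 1.13, 1.61 and 0.26 on the Mreg arrays, against -1.36, -0.12 and -1.42 on the Mreg_no IFN-γ arrays, a rise of 3.91-fold (log2 1.97, SE 0.43, adjusted p = 0.00125). Gch1 and Pts, which make the NOS2 cofactor tetrahydrobiopterin, fell 1.86-fold and 1.53-fold, and Ddah2, which clears NOS inhibitors, fell 2.35-fold. Ido1, which degrades tryptophan, was at -4.04, -7.60 and -4.27 on the Mreg arrays, against -8.12, -7.78 and -7.17 on the Mreg_no IFN-γ arrays, above background on 2 of 3 Mreg arrays, and the groups overlapped through series 2. Its bound was at least 1.36-fold (adjusted p = 0.0221), and with normexp background correction the difference was -0.07. Acod1, the enzyme that makes the antimicrobial metabolite itaconate, was at 1.56, 0.93 and 0.72 on the Mreg arrays, against -6.04, -4.30 and -4.61 on the Mreg_no IFN-γ arrays, a rise of 66.3-fold (log2 6.05, SE 0.63, adjusted p = 5.15e-08). Wars, tryptophanyl-tRNA synthetase, was at 3.91, 3.11 and 2.84 on the Mreg arrays, against 1.30, 1.10 and 1.10 on the Mreg_no IFN-γ arrays, a rise of 4.33-fold (log2 2.12, SE 0.21, adjusted p = 2.47e-08). Both Acod1 and Wars were clear of overlap. Ido1 lost its call without Mreg series 1, Mreg series 3, Mreg_no IFN-γ series 1 or Mreg_no IFN-γ series 2 (adjusted p 0.0613 to 0.168). Ass1, Ddah2 and Pts lost their calls with only the 6 arrays in the fit, and Ido1 lost its call with only the 6 arrays in the fit and with the series number as a block in a fit of the 6 arrays. Acod1 was well above background on 2 of 3 Mreg_no IFN-γ arrays. Arg1 was called with the slide as a block (log2 0.77, adjusted p = 0.0248) and with the series number as a block in a fit of the 6 arrays (log2 0.77, adjusted p = 0.012).

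Of 8 receptors for antibody 4 were higher and 1, Fcgr2b, was lower, where 9.51% of all genes rose and 10.9% fell. Fcgr4, an activating receptor for IgG2, was at 5.82, 4.92 and 5.23 on the Mreg arrays, against 3.39, 3.47 and 3.21 on the Mreg_no IFN-γ arrays, a rise of 3.9-fold (log2 1.96, SE 0.26, adjusted p = 2.36e-06). Fcgr1, the high-affinity receptor, was at 7.80, 6.95 and 7.74 on the Mreg arrays, against 6.09, 5.65 and 6.26 on the Mreg_no IFN-γ arrays, a rise of 2.82-fold (log2 1.50, SE 0.27, adjusted p = 2.02e-04). Fcgr2b, the inhibitory receptor, was at -2.27, -0.18 and -2.19 on the Mreg arrays, against 0.48, 1.50 and 0.27 on the Mreg_no IFN-γ arrays, a fall of 4.91-fold (log2 -2.30, SE 0.62, adjusted p = 0.00879). In Fcgr2b the series 2 arrays were the highest of each group, and the groups did not overlap. The cytosolic antibody receptor Trim21 rose 4.22-fold (log2 2.08, SE 0.21, adjusted p = 3.16e-08), and Fcer1g, the shared signalling chain, was not called (adjusted p = 0.412). Among 20 complement genes 8 rose and 3 fell. Cfb, factor B of the alternative pathway, was at -0.96, -2.33 and -1.46 on the Mreg arrays, against -6.53, -6.36 and -5.97 on the Mreg_no IFN-γ arrays, a rise of at least 17.9-fold (adjusted p = 2.45e-06). C3 rose 5.66-fold (log2 2.50, SE 0.41, adjusted p = 5.44e-05) and C4b 13.1-fold (log2 3.71, SE 0.72, adjusted p = 3.90e-04), and Vsig4, a macrophage receptor for C3b, fell to below background (at least 2.7-fold lower, adjusted p = 1.63e-04). Cd14, the co-receptor that hands LPS to TLR4, was at 1.75, 2.05 and 1.66 on the Mreg arrays, against 4.22, 3.56 and 3.41 on the Mreg_no IFN-γ arrays, a fall of 3.76-fold (log2 -1.91, SE 0.36, adjusted p = 2.93e-04), while Tlr4 rose 1.94-fold (log2 0.96, SE 0.20, adjusted p = 8.60e-04). Of 22 Toll-like receptor genes 6 rose and 2 fell. Fcgr2b lost its call without Mreg series 1, Mreg series 3 or Mreg_no IFN-γ series 2 (adjusted p 0.0537 to 0.0657). C4b lost its call with normexp background correction and with the series number as a block in a fit of the 6 arrays, and Cfb lost its call with normexp background correction. Fcgr2b lost its call with only the 6 arrays in the fit. C4b was well above background on 1 of 3 Mreg_no IFN-γ arrays.

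Ly6 surface antigens rose in 5 of 9 members, the same number without both series 2 arrays, and none fell. Ly6a (Sca-1), an interferon-induced antigen known from stem cells, was at 5.98, 3.59 and 5.28 on the Mreg arrays, against -4.52, -4.65 and -3.32 on the Mreg_no IFN-γ arrays, a rise of 552-fold (log2 9.11, SE 0.61, adjusted p = 1.01e-11). Ly6c1 was at 7.61, 5.48 and 7.10 on the Mreg arrays, against -2.18, -1.63 and -1.07 on the Mreg_no IFN-γ arrays, a rise of 328-fold (log2 8.36, SE 0.55, adjusted p = 8.52e-12), and its probe may also read Ly6c2, the antigen by which the monocytes were sorted. The series 2 Mreg array was the lowest of its group in both genes, and every Mreg level was above every Mreg_no IFN-γ level. Ly6i rose 15.7-fold, Ly6f at least 41.3-fold and Ly6e 4.18-fold. Among adhesion genes, Icam1, a ligand of leukocyte integrins, was at 5.04, 3.51 and 3.98 on the Mreg arrays, against 2.18, 1.70 and 2.09 on the Mreg_no IFN-γ arrays, a rise of 4.56-fold (log2 2.19, SE 0.33, adjusted p = 1.74e-05), and Cd44 rose 1.88-fold. Clec9a, a receptor for dead cells that marks cross-presenting dendritic cells, was at 1.40, -0.27 and 0.26 on the Mreg arrays, against -7.71, -7.42 and -7.85 on the Mreg_no IFN-γ arrays, a rise of at least 74.1-fold (adjusted p = 8.17e-13), while Ccr7 and Cd209a were below background in both groups.

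The cell cycle was the second large group of rises. Of 43 mitosis genes 40 rose and none fell (median log2 difference 1.62), and of 49 DNA replication genes 35 rose and none fell (median 1.14). Uhrf1, which keeps DNA methylation through replication, was at 1.95, 1.36 and 1.58 on the Mreg arrays, against -0.61, -1.12 and -0.53 on the Mreg_no IFN-γ arrays, a rise of 5.23-fold (log2 2.39, SE 0.28, adjusted p = 3.21e-07). Mcm5, a subunit of the replicative helicase, was at 3.22, 2.74 and 2.73 on the Mreg arrays, against 1.21, 0.47 and 1.11 on the Mreg_no IFN-γ arrays, a rise of 3.92-fold (log2 1.97, SE 0.24, adjusted p = 8.96e-07). Rrm2, which makes deoxynucleotides, was at 1.26, 0.40 and 0.66 on the Mreg arrays, against -1.13, -1.89 and -1.08 on the Mreg_no IFN-γ arrays, a rise of 4.4-fold (log2 2.14, SE 0.38, adjusted p = 1.50e-04). The Mreg levels were above the Mreg_no IFN-γ levels on every slide in these 3 genes. Mcm10, Pole and Orc1, which fire and copy origins, rose 5.75-fold, 5.6-fold and 4.07-fold, Mcm7 3.53-fold and cyclin E2 (Ccne2) 4.69-fold. Foxm1, the factor that drives mitotic genes, was at -0.55, -1.12 and -1.14 on the Mreg arrays, against -3.06, -3.43 and -2.88 on the Mreg_no IFN-γ arrays, a rise of 4.55-fold (log2 2.19, SE 0.29, adjusted p = 3.21e-06). Mybl2, its partner, was at -0.32, -0.92 and -0.81 on the Mreg arrays, against -2.78, -3.28 and -2.63 on the Mreg_no IFN-γ arrays, a rise of 4.64-fold (log2 2.21, SE 0.26, adjusted p = 3.85e-07), and Top2a, which untangles chromosomes, was at 1.08, 0.22 and 0.66 on the Mreg arrays, against -1.19, -2.12 and -1.02 on the Mreg_no IFN-γ arrays, a rise of 4.27-fold (log2 2.10, SE 0.35, adjusted p = 6.52e-05). Again no Mreg array overlapped with the others. Cyclin A2 (Ccna2) rose 4.31-fold, Kif4 4.84-fold, Spc24 4.47-fold and Cenpf 4.41-fold. Some bright members did not pass: Pcna, the sliding clamp, was at 7.43, 7.44 and 7.40 on the Mreg arrays, against 7.66, 7.17 and 7.41 on the Mreg_no IFN-γ arrays, and Mcm6 was at 5.97, 5.47 and 5.62 on the Mreg arrays, against 4.79, 4.41 and 4.67 on the Mreg_no IFN-γ arrays without overlap, with an SE of 1.42 from its spread on arrays of other groups (adjusted p = 0.701). Without both series 2 arrays 36 mitosis and 33 replication genes were higher, and with normexp background correction 30 mitosis genes were. Cenpf lost its call with only the 6 arrays in the fit, and Orc1 lost its call with normexp background correction. Orc1 was well above background on 2 of 3 Mreg_no IFN-γ arrays. Mcm6 was called with only the 6 arrays in the fit (log2 1.06, adjusted p = 0.0163) and with the series number as a block in a fit of the 6 arrays (log2 1.06, adjusted p = 0.011).

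Among 30 genes of cell cycle entry and its brakes 8 rose and 4 fell, and brakes were called in both directions. Over all genes 9.51% rose and 10.9% fell.
Cdkn1c (p57), a kinase inhibitor, was at -1.83, -1.55 and -1.89 on the Mreg arrays, against 1.26, 1.08 and 0.65 on the Mreg_no IFN-γ arrays, a fall of 6.75-fold (log2 -2.75, SE 0.31, adjusted p = 2.58e-07).
Cdkn2b (p15), an inhibitor of CDK4 and CDK6, was at -4.46, -5.60 and -5.46 on the Mreg arrays, against -1.25, -3.48 and -2.19 on the Mreg_no IFN-γ arrays, a fall of 7.29-fold (log2 -2.87, SE 0.60, adjusted p = 8.66e-04).
Cyclin D1 (Ccnd1), which M-CSF induces for entry into the cycle, was at 5.85, 5.09 and 5.44 on the Mreg arrays, against 4.35, 3.71 and 4.25 on the Mreg_no IFN-γ arrays, a rise of 2.55-fold (log2 1.35, SE 0.25, adjusted p = 2.37e-04).
Both inhibitors were lower on every Mreg array and Ccnd1 was higher on every one.
Ccnd2 rose 5.3-fold (log2 2.41, SE 0.53, adjusted p = 0.00148), the E2F repressors E2f7 and E2f8 rose 7.07-fold and 5.79-fold, and Gadd45a, a stress brake, fell 2.8-fold. Ccnd2 lost its call with only the 6 arrays in the fit, and E2f8 lost its call with normexp background correction. Cdkn2b was well above background on 2 of 3 Mreg arrays and E2f7 and E2f8 on 2 of 3 Mreg_no IFN-γ arrays.
E2F factors switch on replication genes through the E2F element, whose letters TTTCCCGC or TTTGGCGC are in capitals below, here as read from the opposite strand.
Mcm5: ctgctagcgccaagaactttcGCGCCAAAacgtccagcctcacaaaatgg
E2f7: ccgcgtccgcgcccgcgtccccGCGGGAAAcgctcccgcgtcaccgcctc

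The windows are chr8:75109339-75109388 on the plus strand (Mcm5) and chr10:110745219-110745268 on the plus strand (E2f7) on GRCm38.p6. An E2F element stood in 4 of 28 promoters of replication genes called higher (14.3%), against 1.35% of all promoters and 2.34% of those of genes tested. Mitosis genes called higher held a Y box in 25 of 33 promoters (75.8%), against 34.5% of all, and the CHR letters TTTGAA in 10 (30.3%), against 16.3%. E2F and ISRE core matches overlapped in 5 promoters, and Y box and CHR matches in 34.

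Of the 43 lists, the one with the most falls was the NRF2 programme of glutathione and detoxification genes, of which 24 of 33 fell and none rose (median log2 difference -0.79). Gsta1, a glutathione transferase, was at -4.75, -3.81 and -3.36 on the Mreg arrays, against 0.39, -0.16 and 0.39 on the Mreg_no IFN-γ arrays, a fall of 18.1-fold (log2 -4.18, SE 0.57, adjusted p = 4.31e-06). Gsta3, another, was at 0.71, 1.61 and 1.19 on the Mreg arrays, against 5.18, 4.62 and 4.73 on the Mreg_no IFN-γ arrays, a fall of 12.8-fold (log2 -3.68, SE 0.46, adjusted p = 1.31e-06). Gclc, the rate-limiting enzyme of glutathione synthesis, was at 1.30, 2.05 and 1.25 on the Mreg arrays, against 3.49, 3.54 and 2.85 on the Mreg_no IFN-γ arrays, a fall of 3.39-fold (log2 -1.76, SE 0.25, adjusted p = 5.87e-06). All 3 were lower on every Mreg array, and series 1 Mreg was lowest for Gsta1 and Gsta3. Hmox1, which breaks down heme, was at 6.76, 7.61 and 7.15 on the Mreg arrays, against 8.95, 8.96 and 8.73 on the Mreg_no IFN-γ arrays, a fall of 3.26-fold (log2 -1.70, SE 0.31, adjusted p = 1.68e-04). Nqo1, a quinone reductase, was at -3.31, -2.93 and -2.80 on the Mreg arrays, against -0.96, -1.37 and -1.30 on the Mreg_no IFN-γ arrays, a fall of 3.5-fold (log2 -1.81, SE 0.24, adjusted p = 3.22e-06), and Slc7a11, which imports cystine for glutathione, was at -2.79, -1.44 and -2.62 on the Mreg arrays, against 0.36, 0.87 and 0.15 on the Mreg_no IFN-γ arrays, a fall of 6.7-fold (log2 -2.75, SE 0.50, adjusted p = 1.76e-04). These, too, did not overlap between groups. Mgst2 fell 3.43-fold, Gstm2 3.01-fold and catalase (Cat) 2.69-fold, while the lipid peroxidase gene Gpx4 and the pentose phosphate enzyme Taldo1 were not called (adjusted p = 0.122 and 0.197). Without both series 2 arrays 22 members were lower, and 16 with normexp background correction, under which the median of all genes was -0.22. Gpx4 was called with quantile normalization (log2 -0.38, adjusted p = 0.00272) and from the authors' series table (log2 -0.35, adjusted p = 0.00768).

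NRF2 binds the antioxidant response element, and its letters TGACNNNGC are in capitals in the Gsta3 promoter at chr1:21240440-21240489 on the plus strand.
Gsta3: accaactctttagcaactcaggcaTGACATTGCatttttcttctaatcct

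The element stood in 6 of 20 promoters of the genes of this list called lower (30.0%), against 15.2% of all genes called lower and 10.1% of all promoters, and it overlapped a Y box in 40 promoters.

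**Figure D4:**
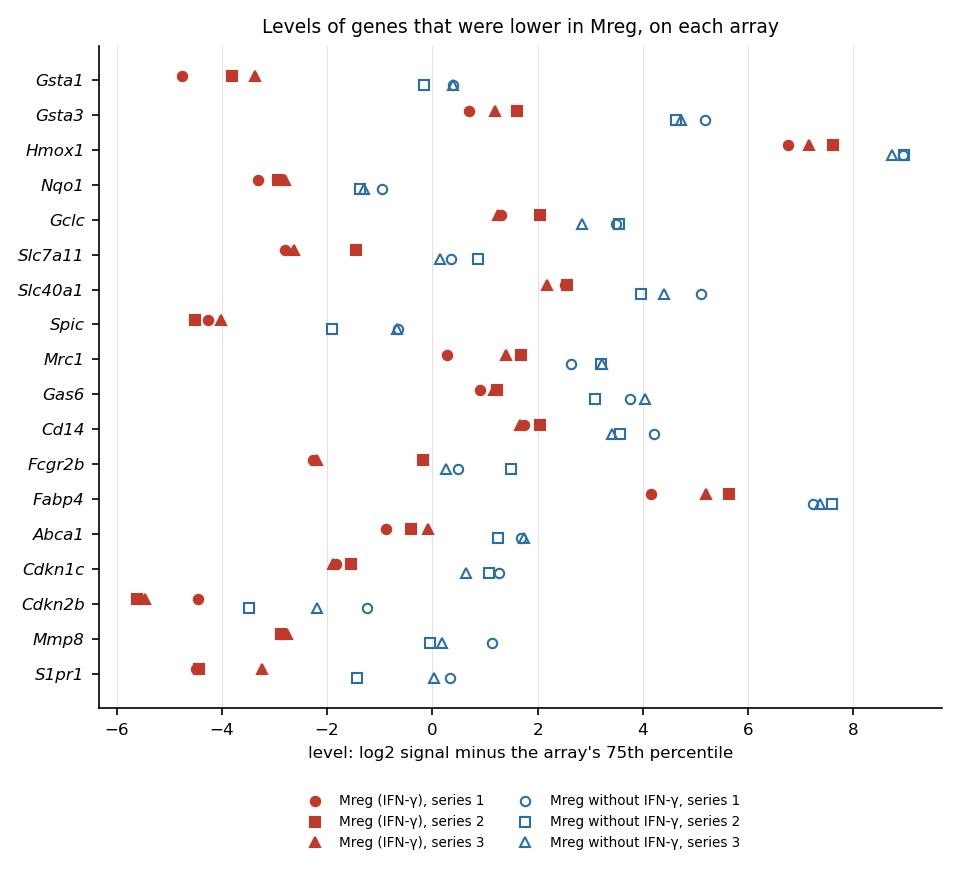
Level of 18 genes that were lower in Mreg, on each array (horizontal axis, log2 signal less the 75th percentile of each array). Filled red symbols are Mreg arrays and open blue ones Mreg_no IFN-γ arrays, with circles, squares and triangles for series 1, 2 and 3. For every gene shown the 3 Mreg symbols lie left of the 3 Mreg_no IFN-γ symbols.

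Of 16 iron and heme genes 6 fell and none rose, and 6 fell also without both series 2 arrays. Slc40a1 (ferroportin), the iron exporter, was at 2.51, 2.56 and 2.17 on the Mreg arrays, against 5.11, 3.96 and 4.41 on the Mreg_no IFN-γ arrays, a fall of 4.23-fold (log2 -2.08, SE 0.41, adjusted p = 5.08e-04). Spic, the factor of heme-recycling macrophages, was at -4.25, -4.50 and -4.02 on the Mreg arrays, against -0.66, -1.91 and -0.66 on the Mreg_no IFN-γ arrays, a fall of 9.08-fold (log2 -3.18, SE 0.69, adjusted p = 0.00119). Tfrc, which imports transferrin iron, was at 0.52, 0.15 and 0.29 on the Mreg arrays, against 1.23, 1.21 and 1.29 on the Mreg_no IFN-γ arrays, a fall of 1.89-fold (log2 -0.92, SE 0.19, adjusted p = 9.72e-04). All 3 were lower on every Mreg array, and Hfe, a regulator of iron sensing, fell 2.53-fold and the heme transporter Slc48a1 1.85-fold. Scavenger, lectin and efferocytosis receptors gave 12 falls and 4 rises among 37 members, where 10.9% of all genes fell and 9.51% rose. Gas6, which bridges dying cells to MERTK, was at 0.91, 1.22 and 1.17 on the Mreg arrays, against 3.75, 3.08 and 4.04 on the Mreg_no IFN-γ arrays, a fall of 5.77-fold (log2 -2.53, SE 0.34, adjusted p = 3.67e-06). Mrc1, the mannose receptor, was at 0.29, 1.69 and 1.40 on the Mreg arrays, against 2.64, 3.21 and 3.23 on the Mreg_no IFN-γ arrays, a fall of 3.73-fold (log2 -1.90, SE 0.55, adjusted p = 0.014). Stab1, a scavenger receptor of alternatively activated macrophages, was at 2.16, 1.15 and 2.80 on the Mreg arrays, against 4.43, 3.10 and 4.80 on the Mreg_no IFN-γ arrays, a fall of 4.21-fold (log2 -2.07, SE 0.44, adjusted p = 0.00106). Mrc1 was lowest on the series 1 Mreg array, and the groups of these 3 genes did not overlap. Trem3, which amplifies myeloid activation, fell 13.6-fold (log2 -3.76, SE 0.68, adjusted p = 1.77e-04), Trem1 2.98-fold and Colec12 3.88-fold. Without the Mreg_no IFN-γ array of series 1, 8 receptors were lower. Mrc1 lost its call without Mreg series 1 (adjusted p = 0.113). Stab1 lost its call with only the 6 arrays in the fit, and Trem1 lost its call with normexp background correction. Trem1 and Trem3 were well above background on 2 of 3 Mreg arrays.

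Among 40 lysosome genes 5 rose and 10 fell, where 9.51% of all genes rose and 10.9% fell. Ctsc, which activates granule proteases, was at 6.78, 5.60 and 6.44 on the Mreg arrays, against 3.20, 2.71 and 3.36 on the Mreg_no IFN-γ arrays, a rise of 9.08-fold (log2 3.18, SE 0.23, adjusted p = 3.84e-11). Ctsk, a collagen-degrading protease of osteoclasts, was at -2.51, 0.12 and -1.69 on the Mreg arrays, against 0.75, 2.14 and 0.99 on the Mreg_no IFN-γ arrays, a fall of 6.27-fold (log2 -2.65, SE 0.60, adjusted p = 0.00193). Ppt1, which removes palmitate from proteins, rose 4.18-fold (log2 2.06, SE 0.33, adjusted p = 3.60e-05). Ctsc was higher and Ctsk lower on every Mreg array. The falls numbered 6 without the Mreg array of series 1 and 4 with only the 6 arrays in the fit. Lipid efflux and PPAR or LXR targets gave 8 falls and 2 rises among 24 members. Abca1, which exports cholesterol, was at -0.88, -0.41 and -0.07 on the Mreg arrays, against 1.69, 1.25 and 1.75 on the Mreg_no IFN-γ arrays, a fall of 4.04-fold (log2 -2.01, SE 0.37, adjusted p = 1.91e-04). Fabp4, a fatty acid carrier induced by PPARγ, was at 4.15, 5.64 and 5.20 on the Mreg arrays, against 7.23, 7.59 and 7.36 on the Mreg_no IFN-γ arrays, a fall of 5.27-fold (log2 -2.40, SE 0.45, adjusted p = 2.51e-04). Fabp5 fell 2.71-fold and Apoc2 2.37-fold, and Apoe, bright in both groups, was not called (adjusted p = 0.645). Abca1 and Fabp4 did not overlap between groups, and 4 members of this list were lower without the Mreg_no IFN-γ array of series 1, and 5 without both series 2 arrays. Ch25h, which makes 25-hydroxycholesterol from cholesterol, was at 0.65, -6.14 and -2.50 on the Mreg arrays, against -7.95, -7.61 and -6.82 on the Mreg_no IFN-γ arrays, a rise of at least 8.46-fold (adjusted p = 0.00248). On the series 2 Mreg array Ch25h lay below the dimmest signal above background (-5.55), so the bound rests in part on a dimmer spot. Of 35 sterol and fatty acid synthesis genes, Ch25h among them, 5 were higher and 5 lower, where 9.51% of all genes rose and 10.9% fell. Fabp5 lost its call without Mreg series 1 (adjusted p = 0.0538). Ch25h lost its call with normexp background correction, with only the 6 arrays in the fit and with the series number as a block in a fit of the 6 arrays, and Ctsk and Fabp5 lost their calls with only the 6 arrays in the fit. Apoe was called with the series number as a block in a fit of the 6 arrays (log2 -0.38, adjusted p = 0.0334).

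Matrix proteases and lipid mediators changed in both directions. Mmp8, the neutrophil collagenase, was at -2.87, -2.87 and -2.76 on the Mreg arrays, against 1.13, -0.05 and 0.19 on the Mreg_no IFN-γ arrays, a fall of 9.59-fold (log2 -3.26, SE 0.59, adjusted p = 1.92e-04). Mmp12, the macrophage elastase, was at 2.48, 4.40 and 2.31 on the Mreg arrays, against 5.56, 6.59 and 5.69 on the Mreg_no IFN-γ arrays, a fall of 7.38-fold (log2 -2.88, SE 0.61, adjusted p = 9.16e-04), and Mmp10 fell 6.48-fold. Ptgs2 (COX-2), which starts prostaglandin synthesis, was at -1.59, -3.88 and -2.86 on the Mreg arrays, against -8.03, -7.70 and -8.02 on the Mreg_no IFN-γ arrays, a rise of at least 7.82-fold (adjusted p = 6.37e-06). The Mmp8, Mmp12 and Ptgs2 groups did not overlap. Hpgd, which inactivates prostaglandins, fell 4.88-fold (log2 -2.29, SE 0.53, adjusted p = 0.00235), and Pla2g4a, which releases arachidonic acid, rose 2.8-fold. Of 18 matrix genes 4 rose and 6 fell, with a lone rise without the Mreg_no IFN-γ array of series 1, and of 18 eicosanoid genes 4 rose and 4 fell, with a lone fall without that array. Over all genes 9.51% rose and 10.9% fell. Entpd1 (CD39), which turns extracellular ATP toward adenosine, was at 3.26, 3.20 and 2.88 on the Mreg arrays, against 0.84, 0.83 and 0.80 on the Mreg_no IFN-γ arrays, a rise of 4.9-fold (log2 2.29, SE 0.18, adjusted p = 2.82e-10), and P2ry14, a receptor of UDP-glucose, was at 1.30, 1.04 and 0.82 on the Mreg arrays, against -2.51, -1.63 and -2.25 on the Mreg_no IFN-γ arrays, a rise of 9.06-fold (log2 3.18, SE 0.23, adjusted p = 4.12e-11). Both nucleotide genes were higher on every Mreg array. Ptgs2 lost its call with normexp background correction. Mmp10 was well above background on 1 of 3 Mreg arrays.

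Of 39 genes of mitochondrial respiration 1 rose and 3 fell, with 3 rises when the series number was a block and no fall without both series 2 arrays, and of 29 glycolysis and hypoxia genes 6 rose and 3 fell, where 9.51% of all genes rose and 10.9% fell. Hk3, a hexokinase of myeloid cells, was at 7.67, 7.43 and 7.36 on the Mreg arrays, against 5.41, 5.81 and 5.48 on the Mreg_no IFN-γ arrays, a rise of 3.78-fold (log2 1.92, SE 0.11, adjusted p = 5.42e-13), and Hk2 rose 2.14-fold and Pfkp 3.08-fold. The Hk3 groups lay well apart, while lactate dehydrogenase Ldha, bright in both groups, was not called (adjusted p = 0.959). Of 15 alternative activation genes, Tgm2 and Flt1 rose, 3.15-fold and 9.45-fold, and none fell, where 9.51% of all genes rose and 10.9% fell. The falls of this list numbered 1 with the series number as a block and 1 with normexp background correction. They numbered 2 with only the 6 arrays in the fit, and up to 2 with 1 array left out. Mrc1 and Stab1, both called lower, were counted with the scavenger receptors instead. Transcription factors of myeloid identity gave 4 rises and 5 falls among 36, close to the shares over all genes, with Klf6 2.22-fold higher (adjusted p = 4.94e-07).

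The remaining large falls had no list in common. Galnt9, a glycosyltransferase, was at -5.83, -3.52 and -4.64 on the Mreg arrays, against -1.16, 0.49 and -0.79 on the Mreg_no IFN-γ arrays, a fall of 18-fold (log2 -4.17, SE 0.64, adjusted p = 2.23e-05). Dio2, which activates thyroid hormone, was at -2.37, -0.01 and -1.26 on the Mreg arrays, against 1.85, 3.18 and 2.15 on the Mreg_no IFN-γ arrays, a fall of 12.2-fold (log2 -3.61, SE 0.73, adjusted p = 5.69e-04). Htr2b, a serotonin receptor found on macrophages, was at -4.42, -1.53 and -2.60 on the Mreg arrays, against 0.44, 1.15 and 0.79 on the Mreg_no IFN-γ arrays, a fall of 12.5-fold (log2 -3.64, SE 0.58, adjusted p = 3.29e-05). In all 3 the series 1 Mreg array was the lowest and the series 2 one the highest of its group, without overlap. Vasn, a binder of TGF-β, fell 12-fold (log2 -3.58, SE 0.67, adjusted p = 2.44e-04), and Mamdc2 fell 11.3-fold (log2 -3.49, SE 0.63, adjusted p = 1.69e-04). Mamdc2 lost its call with only the 6 arrays in the fit. Vasn was well above background on 1 of 3 Mreg arrays and Galnt9 and Mamdc2 on 2 of 3 Mreg arrays.

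The last comparison asked whether IFN-γ acted alike in the Mreg culture and in M-CSF macrophages, by an interaction contrast with no shared arrays. The responses differed in 288 genes (1.64%), 216 of them more positive in the Mreg culture (1.23%) and 72 more negative, and 1992 genes had an unadjusted p below 0.05. With the series number as a block 457 genes differed, and with normexp background correction 41. With 1 array left out 135 (without MΦ_IFN-γ series 2 or MΦ_M0 series 3) to 248 genes differed, and more than 187 only without Mreg series 2, Mreg_no IFN-γ series 3 or MΦ_M0 series 2. The MΦ_IFN-γ and MΦ_M0 arrays lay on different slides, so slide and IFN-γ cannot be told apart in the response of M-CSF macrophages. The Mreg groups shared slides that held neither M-CSF group, so slide and culture cannot be told apart either. The cultures also differ in both M-CSF dose and human serum. Among listed genes measured in all 4 groups, the 12 largest differences included GTPase, Ly6 and cell cycle genes. Cx3cl1 was at 2.10, 3.20 and 1.84 on Mreg, -2.10, -1.79 and -2.17 on Mreg_no IFN-γ, -3.71, -4.27 and -4.07 on MΦ_IFN-γ and -2.93, -3.48 and -3.34 on MΦ_M0 arrays. Its response was log2 4.40 in the Mreg culture and -0.77 in M-CSF macrophages, a difference of 5.17 (SE 0.70, adjusted p = 1.35e-04). Ly6a was at 5.98, 3.59 and 5.28 on Mreg, -4.52, -4.65 and -3.32 on Mreg_no IFN-γ, 6.24, 6.00 and 5.82 on MΦ_IFN-γ and 0.61, 1.92 and 2.27 on MΦ_M0 arrays. Its response was 9.11 and 4.42 (difference 4.69, SE 0.86, adjusted p = 0.00446). Tgtp1 was at 7.25, 7.22 and 6.97 on Mreg, -2.76, -2.47 and -2.42 on Mreg_no IFN-γ, 7.31, 7.51 and 7.60 on MΦ_IFN-γ and 1.32, 2.00 and 2.42 on MΦ_M0 arrays, a difference of 4.13 (SE 0.52, adjusted p = 4.64e-05). For Ly6a and Tgtp1 the Mreg_no IFN-γ arrays were the lowest of the 4 groups, each below every MΦ_M0 array, and for Cx3cl1 the Mreg arrays were the highest.

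Ly6c1 responded by 8.36 and 3.94 in the Mreg and M-CSF cultures (difference 4.42, adjusted p = 0.00314). Gbp7 responded by 7.84 and 4.55 (difference 3.29, adjusted p = 0.0102), and Gbp9 by 5.76 and 3.09 (difference 2.67, adjusted p = 3.20e-04). The Gbp7 difference rests on a baseline in which 1 of 3 Mreg_no IFN-γ arrays was above background. The antiviral chaperone gene Rtp4 responded by 3.03 and 0.41 (difference 2.62, adjusted p = 0.0226), and Serpinb1a, an inhibitor of neutrophil proteases, by 1.88 and -1.02 (difference 2.90, adjusted p = 0.0388). These genes rose in the Mreg culture, and the difference was positive in each. Mean Rtp4 was 3.59 in Mreg and 0.56 in Mreg_no IFN-γ, below 6.50 in MΦ_IFN-γ and 6.09 in MΦ_M0. Ly6c1, Gbp7 and Gbp9 averaged -1.63, -5.61 and -3.74 in Mreg_no IFN-γ, against 3.81, -1.17 and -0.22 in MΦ_M0. In Mreg they averaged 6.73, 2.23 and 2.01, below the 7.75, 3.38 and 2.87 of MΦ_IFN-γ. Serpinb1a was higher in both Mreg groups than in both M-CSF groups. Fabp4 responded by -2.40 in the Mreg culture and -4.85 in M-CSF macrophages (difference 2.46, adjusted p = 0.0434), and the eotaxin receptor Ccr3 by -1.86 and -4.62 (difference 2.76, adjusted p = 0.00521), so that both falls were smaller in the Mreg culture. The Serpinb1a difference was lost without any array but Mreg series 2 (adjusted p 0.0536 to 0.109), that of Fabp4 without any but Mreg series 1 and MΦ_IFN-γ series 3 (adjusted p 0.0687 to 0.135), and that of Rtp4 without Mreg series 1 or 3, Mreg_no IFN-γ series 1, MΦ_IFN-γ series 1 or 2, or MΦ_M0 series 3 (adjusted p 0.0508 to 0.0723). With normexp background correction the differences of Ly6a, Gbp7, Gbp9, Rtp4, Serpinb1a and Fabp4 did not pass, and in a fit of the 4 groups alone that of Gbp7 did not. With no filter on dim probes those of Serpinb1a and Fabp4 did not pass (adjusted p = 0.0615 and 0.0679). The Fabp4 difference was also lost with the mean of all probes (adjusted p = 0.0556). Serpinb1a lost its call without Mreg series 1 (adjusted p = 0.0771).

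Cell cycle genes were among those whose responses differed. Of 49 replication genes, 15 differed in response, and of 43 mitosis genes 14, all more positive in the Mreg culture. Over all genes 1.64% differed and 1.23% were more positive. With normexp background correction 41 genes differed in all, 30 of them more positive. Mcm10 was at 1.93, 1.43 and 1.46 on Mreg, -0.99, -1.25 and -0.52 on Mreg_no IFN-γ, 2.24, 2.07 and 2.48 on MΦ_IFN-γ and 2.10, 1.90 and 2.44 on MΦ_M0 arrays, a difference of 2.40 (SE 0.46, adjusted p = 0.0064). E2f7 was at -1.17, -2.52 and -1.64 on Mreg, -4.05, -5.50 and -4.24 on Mreg_no IFN-γ, -0.70, -1.01 and -0.96 on MΦ_IFN-γ and -0.92, -1.31 and -1.07 on MΦ_M0 arrays, a difference of 2.62 (SE 0.59, adjusted p = 0.0197). E2f7 was above background on 2 of 3 Mreg_no IFN-γ arrays. The Mreg_no IFN-γ arrays were below those of the other 3 groups in both genes. The E2f7 difference was lost with normexp background correction, and without Mreg series 1, Mreg_no IFN-γ series 2, MΦ_IFN-γ series 2 or MΦ_M0 series 1 (adjusted p 0.0560 to 0.0681). Of 35 sterol synthesis genes, 8 differed, all more positive in the Mreg culture, against 1.23% of all genes.

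**Figure D5:**
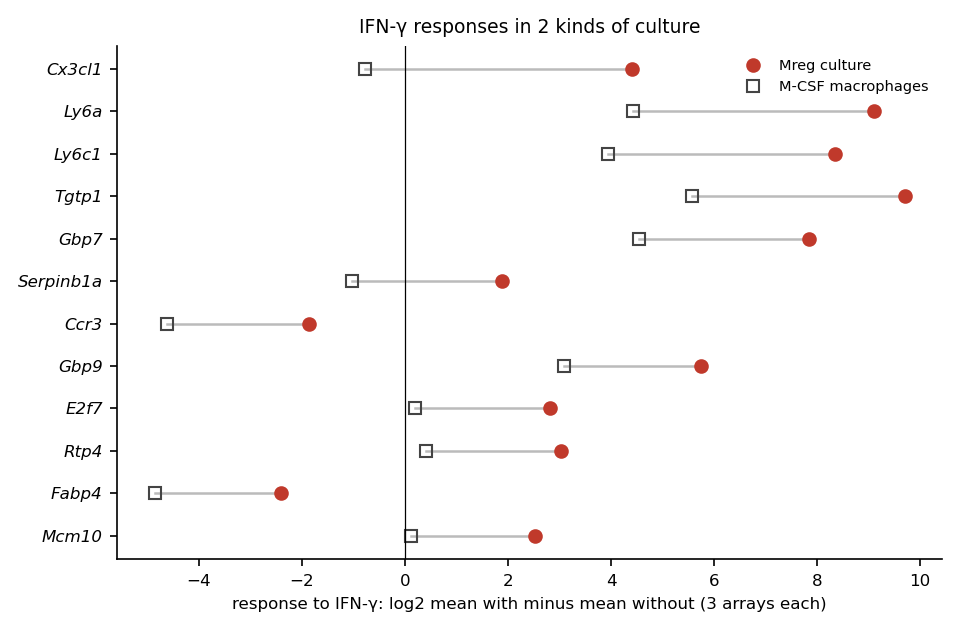
Fitted log2 response to IFN-γ (horizontal axis) of the 12 listed genes with the largest difference between cultures, in the Mreg culture (red filled circles) and in M-CSF macrophages (open squares). The circle lies right of the square for each gene, from Cx3cl1 with a difference of 5.17 to Mcm10 with 2.40.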

How the data were processed

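RNA of 36 mouse myeloid preparations, 12 groups of 3, was hybridized to 1-colour Agilent arrays of design 014868 on 9 slides, and 12 arrays enter the comparisons. The deposited scanner files hold the processed intensity of each spot, from Agilent's scanner program Feature Extraction 10.5.1.1, which also subtracted background and set spot flags, per the file headers. The headers give the probe build as mm8 (NCBI36). The authors' series table, an alternative here, holds log2 intensities that correlated with log2 processed signal at 0.997 or more on every array, and how it was normalized is not given in the sources used here.

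Control spots were dropped, uneven and outlying ones were set to missing, and repeats were averaged. Each array's 75th percentile (338 to 696 in linear units) was subtracted on the log2 scale, and no spot was saturated. Of 41174 probes, 24375 took their gene name by accession, 6301 by symbol and 2426 by synonym from RefSeq (GRCm38.p6, names only), and 8072 kept the name in the file. A probe had to be well above background on 3 or more of the 36 arrays (26458 were), and each of 17592 genes was read from its brightest probe. All 36 arrays were fitted together, with a mean for each group and a shared spread (limma 3.58.1, R 4.3.3), and p-values were adjusted over all genes (Benjamini-Hochberg). The fit was first tested on simulated data. The number of arrays limits the precision. Promoters were matched for 762 of 1001 listed genes in a RefSeq table and searched on both strands over the 250 bases before the start. Figures were drawn with matplotlib 3.10.9 under Python 3.11.15.

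The comparison, the 43 gene lists and the 9 marker lists were chosen with earlier results of these data known. Named genes were, among calls without overlap, the 10 genes with the largest rise and the 10 with the largest fall that were above background on all arrays of the brighter group (clone, predicted and Rik names skipped), up to 8 called members of each list by size and up to 4 bright members that did not pass, a fixed set (among them Nos2, Arg1, Ido1, Cd274, Il10, Tnf, Cxcl9, Cxcl10, Irf1, Socs1, Ciita, Gbp2 and Mrc1) and the 12 largest differences of responses among listed genes measured in all 4 groups. Not all of them are printed, and some genes are not reported here. The series numbers of the labels pair the arrays: same-numbered Mreg and Mreg_no IFN-γ arrays shared a slide, and their deviations from the group means correlated at 0.34, 0.56 and 0.40 in series 1, 2 and 3. Alternatives were normexp background correction (offset 50), quantile normalization, other filters on dim probes (none, 3 of the compared arrays, 18 of 36), the mean of all probes, the authors' series table, a block for series number, slide or scan day, a fit of the compared groups alone, and arrays left out in turn. A block fit of the compared groups alone and the removal of both series 2 arrays were added after seeing the data.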

Additional observations from a re-analysis of the deposited data

Results flagged for a closer look

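The tested difference of IFN-γ responses between the Mreg culture and M-CSF macrophages (log2, limma interaction contrast, 3 arrays in each of 4 groups) drew attention to 12 listed genes, all more positive in the Mreg culture. It was 5.17 for Cx3cl1, 4.69 for Ly6a, 4.42 for Ly6c1, 4.13 for Tgtp1, 3.29 for Gbp7 and 2.90 for Serpinb1a. For Ccr3 it was 2.76, for Gbp9 2.67, for E2f7 2.62, for Rtp4 2.62, for Fabp4 2.46 and for Mcm10 2.40. On the Mreg_no IFN-γ arrays, Gbp7 was above background on 1 of 3 and E2f7 on 2 of 3. In the M-CSF macrophages slide and IFN-γ cannot be told apart, and across the contrast slide and culture cannot.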

How the results depend on the processing

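The 3586 genes called (1673 higher, 1913 lower) became 2236 with normexp background correction (1102 lower), 2368 in a fit of the compared groups alone (1144 lower) and, with 1 array left out, 2383 to 3557 (1231 to 1673 higher, 1152 to 1884 lower), fewest without Mreg series 1. The other alternatives kept the count between 2723 and 4664. Where the median of all genes moved most, with normexp, it was -0.22, and the share of higher among all calls stayed between 43.5 and 51.7% under every alternative. Pairing by series number as a replicate block gave 4256 calls, 4664 with only the compared groups, and it kept 3582 of the 3586. The 288 differences of responses (216 more positive, 72 more negative) became 457 with the replicate block (164 more negative), 41 with normexp (30 and 11), 191 with no filter on dim probes (143 more positive), and 553 with only the compared groups (381 and 172). More negative ones numbered 125 with the slide as a random block and 131 with the scan day as a block. With 1 array left out the count was 135 to 248 (100 to 189 more positive, 33 to 62 more negative). The cause of these changes was not tested. Where arrays were left out, the fit also held fewer arrays. Differences changed sign with normexp for Ido1 (log2 -0.072) and Nos2 (-0.27), with quantile normalization for Ldha (-0.054) and without both series 2 arrays for Pcna (-0.12). With 1 array left out Chil3 ran from -1.31 to 1.78, Ctss from -0.033 to 0.18, Ldha from -0.040 to 0.066 and Pcna from -0.12 to 0.13. Signal over background limits Nos2, Ido1 and other genes that were dim on most arrays, for which folds are bounds.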
